A study of Mus musculus with 5 samples.

Results

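The small leucine-rich proteoglycans described here are 8 genes chosen by name, *Dcn*, *Bgn*, *Lum*, *Fmod*, *Ogn*, *Aspn*, *Prelp* and *Podn*, among the 21835 genes of the expression table. All 8 reached the level required for testing, 0.5 CPM (read counts scaled to a common total per sample) or more in 2 or more samples, as did 12175 genes in all. Murine lung cancer-associated fibroblasts (CAFs) were sequenced after transduction with an empty vector (CAF-vec, 2 samples) or with a lentivirus for miR-200b, miR-429 and miR-200a, 1 genomic cluster (CAF-200, 3 samples), and the study asked which genes the microRNAs change in these cells. Per the labels the CAF-vec genotype is a wild-type control and the CAF-200 genotype is miR-200 overexpression. CAFs were grown in alpha-MEM, infected, and selected with G418, and total RNA went into stranded poly(A) libraries. The comparison is of cultured cells of 1 CAF line with no tumour present, and the labels do not say whether replicates were separate cultures, so *p* values measure only the spread between these samples, which may be technical. Age and strain are not given in the labels.

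Small leucine-rich proteoglycans are secreted matrix proteins whose curved, leucine-rich core binds collagen and sets how collagen fibrils assemble. The class I members decorin and biglycan carry chondroitin or dermatan sulfate chains, which asporin of the same class lacks, class II members such as lumican and fibromodulin can carry keratan sulfate, and several members also bind TGF-β or receptors on nearby cells. In lung they are products of fibroblasts, and decorin and lumican are widely used as markers of that cell type.

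The transduced cluster makes 3 mature microRNAs whose sequences are shown because their seed, bases 2 to 8 in capitals, defines the match looked for in the proteoglycan transcripts. The sequences are those of RefSeq (GRCm38.p6), and all lie on the minus strand of chromosome 4, miR-200b-3p at chr4:156055685-156055706, miR-200a-3p at chr4:156054911-156054932 and miR-429-3p at chr4:156053916-156053937. miR-200b-3p and miR-429-3p share 1 seed, and miR-200a-3p has another.
mmu-miR-200b-3p: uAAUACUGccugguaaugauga
mmu-miR-429-3p: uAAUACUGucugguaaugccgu
mmu-miR-200a-3p: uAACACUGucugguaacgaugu

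None of the 8 proteoglycans held a complete match to either seed in its longest annotated 3′-UTR (GENCODE M21, GRCm38), and 2 of the 8, *Aspn* and *Podn*, held a shorter form of it. The complete matches searched on the sense strand were CAGTATT for miR-200b-3p and miR-429-3p and CAGTGTT for miR-200a-3p. Of 12055 tested genes with such a UTR, 30.25% held at least 1 of these, and so did 26.57% of the 6175 genes whose UTR was within the length range of the members, 488 to 2302 bases. The 10 other genes of the family listed here also held 0. *Zeb1* and *Zeb2*, repressors of epithelial genes that are textbook targets of these microRNAs, each held 5 of CAGTATT and 4 of CAGTGTT. The shorter forms, AGTATTA and AGTGTTA, pair with bases 2 to 7 and end in an A, overlap the complete match by 6 bases, and were present in 20.17% of the tested genes. The *Aspn* 3′-UTR held 1 of each, at chr13:49566697-49566717 and chr13:49567305-49567325 on the plus strand, and the *Podn* 3′-UTR held 1, at chr4:108014801-108014821 on the minus strand. These 3 stretches are printed with the match in capitals because they are all the complete or shorter matches found in the 8 members. Still shorter matches were not searched. A match is a run of letters and not a shown binding site, and a missing match says only that the letters are not in this annotated UTR.
Aspn, miR-200b-3p and miR-429-3p: taatggtAGTATTAtacacat
Aspn, miR-200a-3p: gttacatAGTGTTAttacttc
Podn, miR-200b-3p and miR-429-3p: aatataaAGTATTAtccctgc

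The microRNAs themselves were not measured in these libraries, so the labels were checked on *Zeb1*, which stood at 43.5 and 50.7 CPM without and at 37.8, 37.5 and 34.1 CPM with the cluster (limma log2 fold-change -0.36, adjusted *p* = 0.0504). *Zeb2* was 46.2 and 29.8 CPM in CAF-vec and 31.9, 31.8 and 31.1 CPM in CAF-200, and the groups overlapped (limma log2 fold-change -0.23, adjusted *p* = 0.374). The log2 difference over tested genes had a standard deviation of 0.490 for CAF-vec 1 against 2, and of 0.192 to 0.204 for any pair within CAF-200. CAF-vec 2 differed from the CAF-200 samples by 0.523 to 0.564 on this measure, more than from CAF-vec 1, but over the 1773 genes with at least 100 CPM on average it was nearer to each CAF-200 sample (0.434 to 0.481) than to CAF-vec 1 (0.570). Fibroblast markers were present, 9 of 10 above 1 CPM in some sample, while *Fap*, a protease of activated fibroblasts, stayed at or below 0.391 CPM. The 7 epithelial markers summed to between 0.0346 and 0.583 CPM per sample with *Krt18* and *Sftpc* at 0, and the 6 endothelial markers to between 0.0583 and 0.857 CPM with *Cldn5* and *Emcn* at 0. Values are in CPM with no counts, so the depth of each sample is unknown.

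Across the proteoglycans, *Dcn* and *Lum* rose about 7- to 8-fold in CAF-200 cells, *Aspn* fell to below 0.1 CPM, and the other 5 members did not pass the test. A gene was called when its adjusted *p* was under 0.01 and its log2 fold-change, on log2(CPM + 0.5), was beyond 1. By that rule 2 of the 8 members were higher in CAF-200, where 2.37% of all tested genes were called higher, and 1 was lower, where 2.35% were called lower. The 1 lower call, *Aspn*, reached the filter on low values through the CAF-vec samples alone and lends that count no weight. The same 3 members passed the adjusted *p* alone, which 4.45% of all tested genes did as higher and 5.57% as lower. All 3 CAF-200 values lay above both CAF-vec values for 3 members (*Dcn*, *Lum* and *Bgn*) and for 24.3% of tested genes, and below both for 3 members (*Aspn*, *Ogn* and *Fmod*) and for 37.3% of tested genes, shares that were thus common in the table as a whole. The median log2 fold-change was 0.02 over the 8 members and -0.09 over all tested genes.

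**Figure D1:**
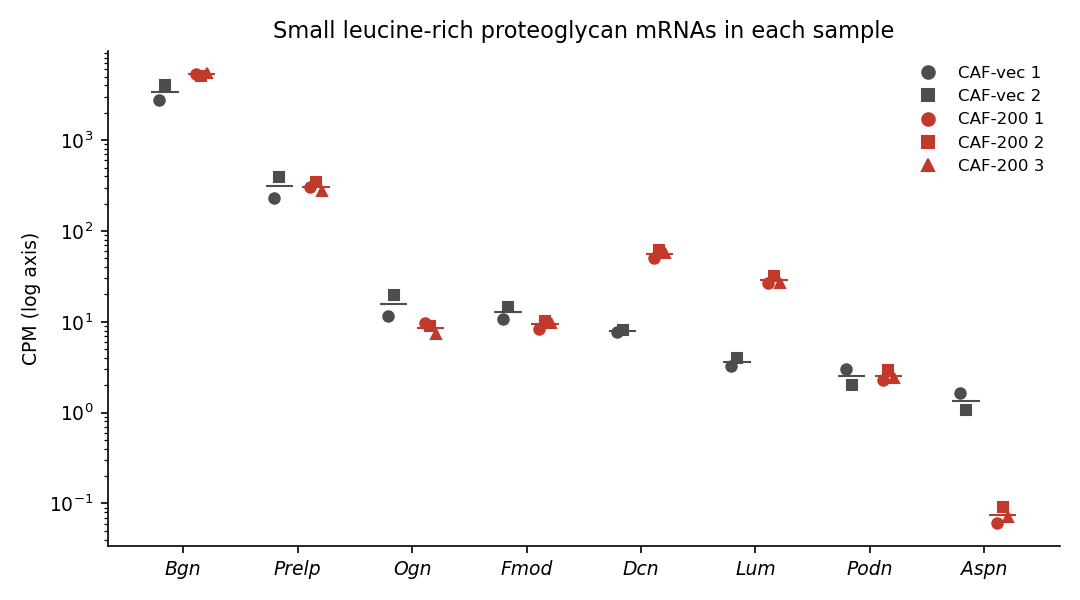
CPM (log axis) of the 8 proteoglycan genes in the 2 CAF-vec samples (grey) and the 3 CAF-200 samples (red), with 1 symbol per sample and a line at each group mean. *Dcn* and *Lum* lie higher in the 3 CAF-200 samples, *Aspn* lies lower, and the groups overlap for *Prelp* and *Podn*.

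Of the class I members, decorin binds collagen fibrils and TGF-β and restrains several growth factor receptors. *Dcn* (ENSMUSG00000019929, chr10:97479609-97518143, plus strand) was at 7.67 and 8.18 CPM in CAF-vec 1 and 2 and at 51.0, 61.5 and 56.7 CPM in CAF-200 1, 2 and 3. The lowest CAF-200 value was thus well above the higher CAF-vec value. The means were 7.93 ± 0.362 CPM (SD, n = 2) and 56.4 ± 5.26 CPM (SD, n = 3), a ratio of 7.11. The log2 fold-change was 2.75 (standard error 0.110, 95% interval 2.48 to 3.02, adjusted *p* = 0.000837, limma with Benjamini-Hochberg adjustment over all tested genes), which ranked 18 among all rises. Leaving out CAF-200 1, 2 or 3 in turn gave a log2 fold-change of 2.69 to 2.82 for *Dcn* with an adjusted *p* of 0.0119 to 0.0129 (limma), above the threshold of 0.01. In those fits at most 1 of the 12175 tested genes was called in either direction, so every call given here was lost in them, while 3821 to 4065 genes had an unadjusted *p* under 0.05.

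Biglycan, the paralog of decorin encoded on the X chromosome, can signal through Toll-like receptors once released from the matrix. *Bgn* (ENSMUSG00000031375, chrX:73483602-73495933, plus strand) was at 2766 and 4038 CPM in CAF-vec and at 5385, 5123 and 5455 CPM in CAF-200. The groups did not overlap, and the CAF-vec samples differed from each other by 1.46-fold where the CAF-200 samples differed by at most 1.06-fold. The means were 3402 ± 899 CPM (SD, n = 2) and 5321 ± 175 CPM (SD, n = 3), and the log2 fold-change of 0.67 did not pass the test (standard error 0.207, 95% interval 0.16 to 1.18, adjusted *p* = 0.0573, limma). It was 0.94 without CAF-vec 2 and 0.40 without CAF-vec 1, so the size rests on which CAF-vec sample is used.

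Asporin is a class I member with a run of aspartate residues, and it binds collagen and TGF-β. *Aspn* (ENSMUSG00000021388, chr13:49544443-49567565, plus strand) was at 1.64 and 1.06 CPM in CAF-vec and at 0.0607, 0.0918 and 0.0717 CPM in CAF-200. Each CAF-200 value was more than 10-fold below either CAF-vec value and equalled 5.95 to 8.75 times the commonest low value of its sample (0.0102 to 0.0105 CPM). The means were 1.35 ± 0.414 CPM (SD, n = 2) and 0.0747 ± 0.0158 CPM (SD, n = 3), 18.1-fold apart, while the log2 fold-change on CPM + 0.5 was -1.67 (standard error 0.194, 95% interval -2.15 to -1.19, adjusted *p* = 0.00466, limma). The added 0.5 CPM understates the change of so low a gene, and with 0.1 CPM added the log2 fold-change was -3.03 (adjusted *p* = 0.00418, limma). *Aspn* passed the filter on low values through the CAF-vec samples alone. With its CAF-200 values below 0.5 CPM, it could be tested only by being higher in CAF-vec. The 3 CAF-200 columns list the same 6127 genes at 0, so their low values may not be independent of each other, and the spread and *p* of *Aspn* then say less than 3 separate samples would. Without CAF-200 1, 2 or 3 its adjusted *p* was 0.0308 to 0.0349 (limma).

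Of the class II members, lumican binds collagen fibrils and spaces them, and it is best known from the transparent cornea. *Lum* (ENSMUSG00000036446, chr10:97565128-97572703, plus strand) was at 3.24 and 4.02 CPM in CAF-vec and at 26.5, 32.3 and 27.1 CPM in CAF-200. As for *Dcn*, the groups lay far apart and CAF-200 2 was the highest sample. The means were 3.63 ± 0.554 CPM (SD, n = 2) and 28.6 ± 3.22 CPM (SD, n = 3), a ratio of 7.89, and the log2 fold-change was 2.82 (standard error 0.140, 95% interval 2.47 to 3.17, adjusted *p* = 0.000929, limma), ranked 15 among all rises. Without CAF-200 1, 2 or 3 the adjusted *p* for *Lum* was 0.0124 to 0.0145 (limma).

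Fibromodulin binds the same kind of collagen site as lumican and takes part in collagen cross-linking. *Fmod* (ENSMUSG00000041559, chr1:134037254-134048277, plus strand) was at 10.9 and 14.6 CPM in CAF-vec and at 8.34, 10.2 and 9.70 CPM in CAF-200. The CAF-200 values were all below both CAF-vec values, the nearest by less than 1 CPM. The log2 fold-change was -0.41 (standard error 0.161, 95% interval -0.81 to -0.01, adjusted *p* = 0.104, limma), and it was -0.61 without CAF-vec 1 and -0.20 without CAF-vec 2.

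PRELP, a class II member with a basic amino-terminal stretch that binds heparin, anchors basement membranes to the connective tissue. *Prelp* (ENSMUSG00000041577, chr1:133910304-133921414, minus strand) was at 233.7 and 395.4 CPM in CAF-vec and at 302.6, 342.7 and 277.6 CPM in CAF-200. The 3 CAF-200 values lay between the 2 CAF-vec values. The log2 fold-change was 0.01 (standard error 0.236, 95% interval -0.57 to 0.59, adjusted *p* = 0.973, limma). It was -0.37 without CAF-vec 1 and 0.39 without CAF-vec 2, so its sign depends on the CAF-vec sample kept. An antisense gene, Gm15851, overlaps *Prelp*.

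Osteoglycin, also called mimecan, is a class III member first isolated from bone and found in many connective tissues. *Ogn* (ENSMUSG00000021390, chr13:49608046-49624501, plus strand) was at 11.5 and 19.7 CPM in CAF-vec and at 9.59, 8.90 and 7.34 CPM in CAF-200. The CAF-200 values were below both CAF-vec values, which were themselves 1.71-fold apart. The log2 fold-change of -0.78 did not pass the test (standard error 0.243, 95% interval -1.38 to -0.18, adjusted *p* = 0.0582, limma). Without CAF-vec 1 it was -1.16, and without CAF-vec 2 it was -0.41. *Ogn* and *Aspn* both lie inside *Cenpp*, a centromere gene on the opposite strand, which was at 7.37 and 6.09 CPM in CAF-vec and at 9.58, 10.7 and 11.3 CPM in CAF-200, the other direction to both.

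Podocan belongs to a separate class of the family and was first described in the kidney glomerulus. *Podn* (ENSMUSG00000028600, chr4:108014791-108096445, minus strand) was at 3.05 and 2.01 CPM in CAF-vec and at 2.26, 2.98 and 2.40 CPM in CAF-200, all between the CAF-vec values. The log2 fold-change was 0.02 (standard error 0.199, 95% interval -0.47 to 0.51, adjusted *p* = 0.940, limma), with -0.23 without CAF-vec 2 and 0.27 without CAF-vec 1. The annotated span of *Podn* overlaps *Scp2* on the same strand, a sterol carrier gene at 93.7 to 124 CPM, so reads of overlapping parts could be split between them.

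**Figure D2:**
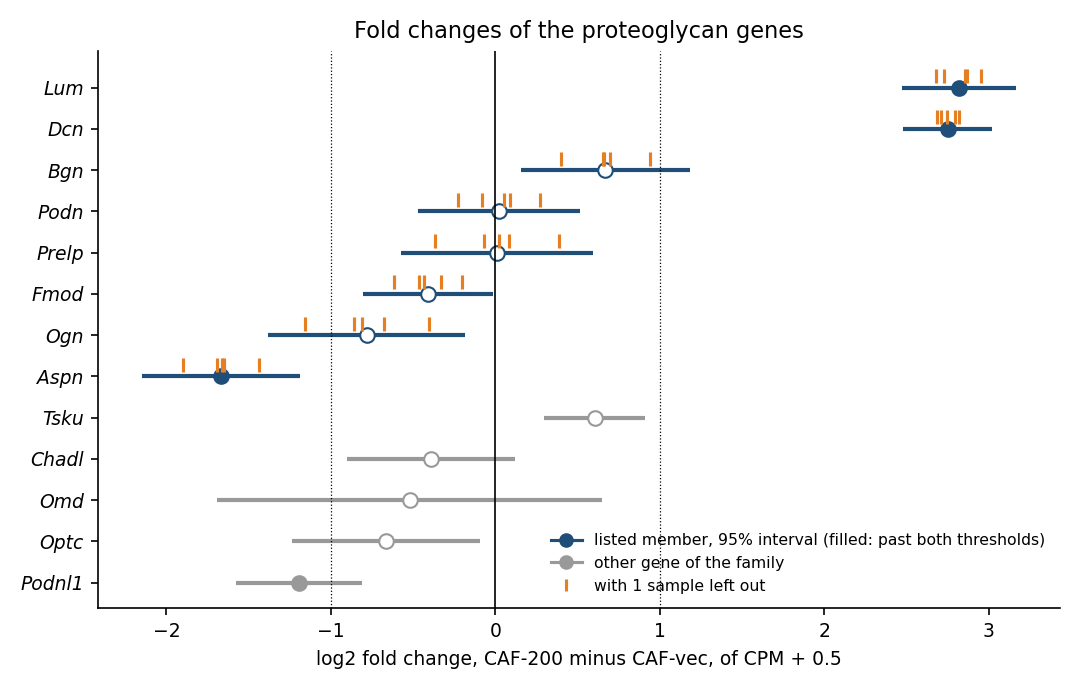
Log2 fold-change of CAF-200 over CAF-vec on log2(CPM + 0.5) for the 8 listed genes (blue) and 5 other tested genes of the family (grey). Bars are 95% intervals, filled circles passed both thresholds, and orange ticks are fits with 1 sample left out. The ticks of *Prelp* and *Podn* fall on both sides of 0, and those of *Dcn* lie between 2.69 and 2.82.

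Levels can be compared between genes once divided by transcript length, and on that scale, CPM per kb, *Bgn* held 92.8% to 94.7% of the summed level of the 8 genes in every sample. In CAF-vec the order was *Bgn* (mean 1406 CPM per kb), *Prelp* (87.0), *Ogn* (6.08), *Dcn* (4.51), *Fmod* (4.08), *Lum* (1.48), *Podn* (0.799) and *Aspn* (0.579). Neighbours from *Ogn* to *Fmod* overlapped between the CAF-vec samples, as did *Podn* and *Aspn*. In CAF-200 the order was *Bgn* (2200 CPM per kb), *Prelp* (85.1), *Dcn* (32.1), *Lum* (11.7), *Ogn* (3.35), *Fmod* (3.02), *Podn* (0.804) and *Aspn* (0.0321), and *Ogn* and *Fmod* overlapped. *Dcn* and *Lum* were thus next after *Prelp* in CAF-200, ahead of *Ogn* and *Fmod*.

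The 8 genes together made up 0.304% and 0.448% of all CPM in CAF-vec and 0.579%, 0.558% and 0.584% in CAF-200, a difference carried in CPM by *Bgn*. With *Bgn* left out, *Dcn* was 5.46% and 3.60% of the remaining level per kb in CAF-vec and 22.2%, 23.2% and 25.4% in CAF-200. *Lum* was 1.66% and 1.27% in CAF-vec and 8.29%, 8.77% and 8.71% in CAF-200. *Prelp* went the other way as a share, from 80.8% and 84.7% to 64.1%, 62.9% and 60.5%, while its own level overlapped between the groups. *Bgn* was 262 and 359 times *Dcn* per kb in CAF-vec and 76.8, 60.6 and 69.9 times in CAF-200. The ratio of *Dcn* to *Lum* per kb stayed within 2.65 to 3.30 over all 5 samples. In bulk RNA, a change in the share of cells that make a transcript and a change in its level per cell cannot be told apart.

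**Figure D3:**
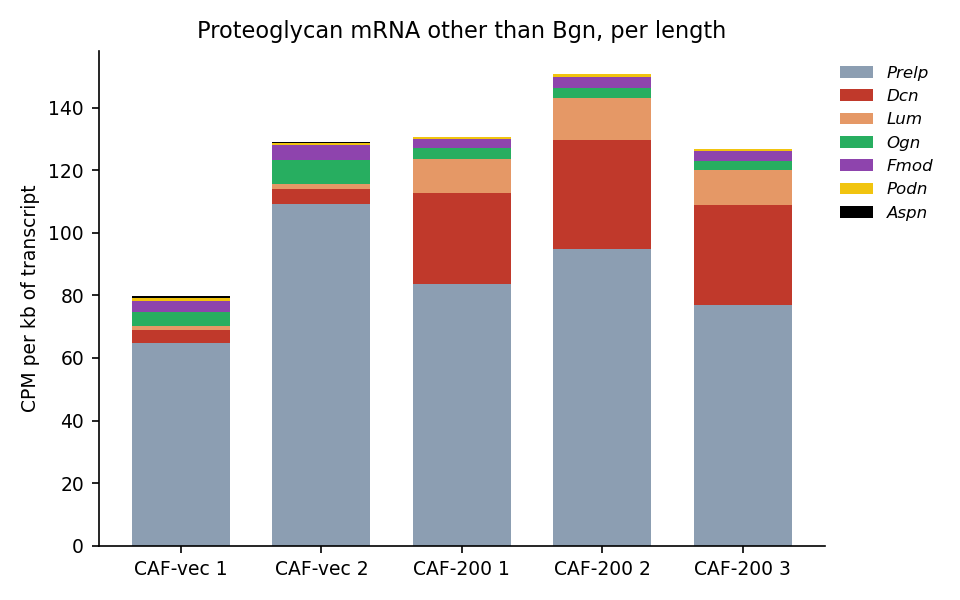
Stacked level per transcript length (CPM per kb) of the 7 proteoglycans other than *Bgn*, 1 bar per sample. *Dcn* and *Lum* widen from 5.46% and 1.66% of the bar in CAF-vec 1 to 22.2% and 8.29% in CAF-200 1, and *Prelp* is the tallest part throughout.

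Most of these genes sit in 3 clusters of the family, and *Dcn* and *Lum* are neighbours. Their start sites are 85.5 kb apart on chromosome 10, in a cluster of 202.8 kb that also holds *Kera* and *Epyc*, corneal and cartilage members listed at 0 in every sample. The 1 other coding gene within 500 kb of that cluster was below the level for testing. The cluster of *Ecm2*, *Aspn*, *Omd* and *Ogn* on chromosome 13 spans 119.7 kb. Its 3 tested members had log2 fold-changes of -1.67 (*Aspn*), -0.52 (*Omd*, osteomodulin, adjusted *p* = 0.427, limma) and -0.78 (*Ogn*), of which that of *Aspn* passed. *Omd* was at 0.314 and 2.06 CPM in CAF-vec and at 0.611, 0.404 and 0.513 CPM in CAF-200, so CAF-vec 2 stood apart. The 9 other tested coding genes within 500 kb had a median log2 fold-change of 0.09. Of these, 2 passed the adjusted *p* as lower, where 5.57% of all tested genes did. Of the 2, 1 was also past the fold threshold, where 2.35% of all tested genes were called lower. The cluster of *Optc*, *Prelp* and *Fmod* on chromosome 1 spans 151.1 kb, and *Optc*, opticin of the eye, was at 0.575 and 1.19 CPM in CAF-vec and at 0.371, 0.294 and 0.392 CPM in CAF-200 (limma log2 fold-change -0.66, adjusted *p* = 0.0787). *Optc* reached 0.5 CPM in the CAF-vec samples alone, so it too was tested through the group in which it was higher. The 12 other tested coding genes within 500 kb of this cluster had a median of -0.22.

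**Figure D4:**
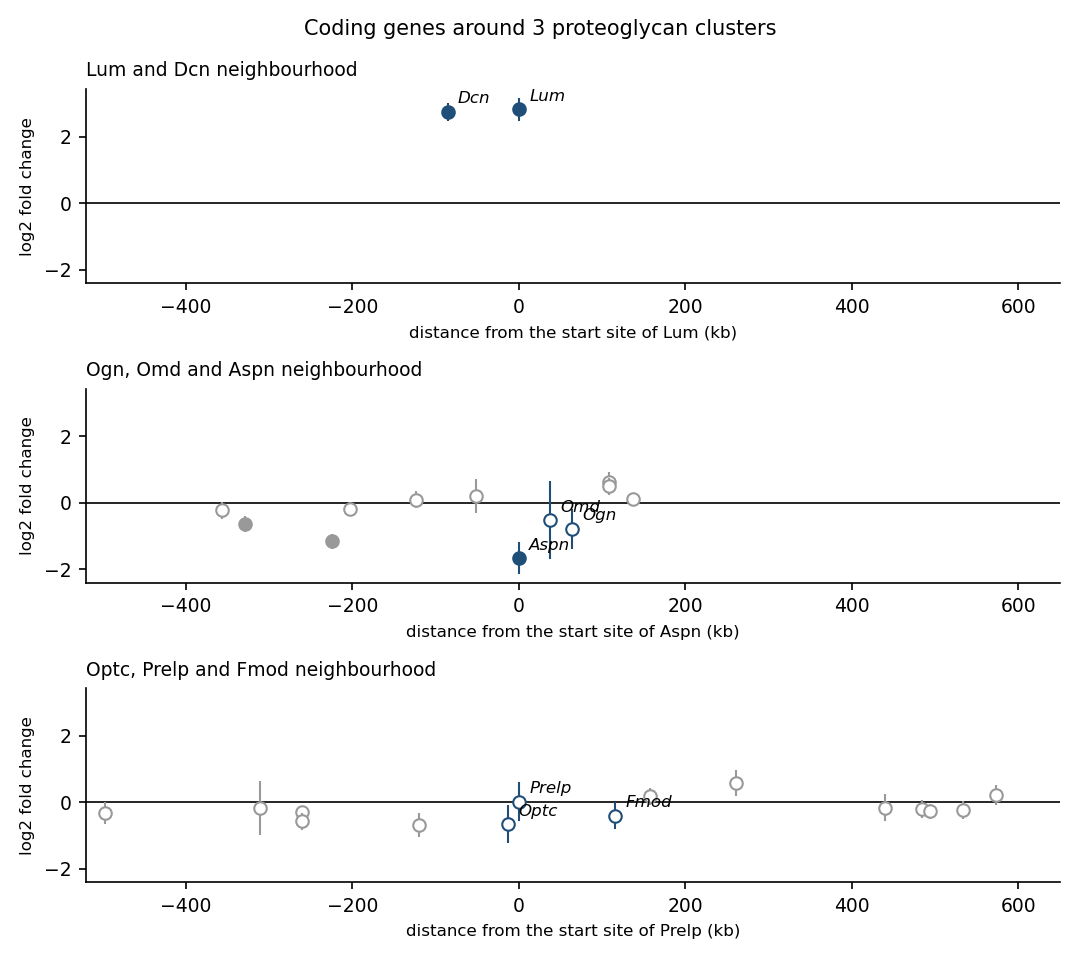
Log2 fold-change (points, with 95% intervals) of tested coding genes against the distance of their start site in kb from that of *Lum*, *Aspn* or *Prelp*, for 3 proteoglycan clusters with 500 kb on each side. Blue points are family members, grey points other genes, and filled points had an adjusted *p* under 0.01. *Dcn* and *Lum* are the sole tested coding genes of their window.

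The gene whose pattern over the 5 samples was nearest to *Dcn* was *Lum*, and the nearest to *Lum* was *Dcn*, by Euclidean distance between centred log2(CPM + 0.5) values over 12175 genes (0.186). The next for *Dcn* were *Stc1* (0.311), a secreted glycoprotein hormone, and *Acta2* (0.350), smooth muscle actin, and for *Lum* they were *Stc1* (0.255) and *Gstk1* (0.265). The nearest genes to *Aspn* were *Cdh22*, *Trnp1* and *Abca7* (0.133 to 0.160). Those of *Ogn* were *Rab40b*, *Gcat* and *Gm20521*, those of *Fmod* were *Pax9*, *Meis1* and *Zfp738*, those of *Bgn* were *Usp49*, *Kif20b* and *Ptcd3*, those of *Prelp* were *Dusp11*, *Zfp457* and *Uty*, and those of *Podn* were *Abcb9*, *Pakap* and *Atf7ip*. With 5 samples in 2 groups, such likeness is a description of the group difference and the spread.

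*Acta2* itself was 92.8 and 126 CPM in CAF-vec and 661, 653 and 706 CPM in CAF-200 (limma log2 fold-change 2.63, adjusted *p* = 0.00123), and *Thy1*, a surface antigen of fibroblasts, had a limma log2 fold-change of 1.46 (adjusted *p* = 0.0029). These were the 2 of 9 tested fibroblast markers that were called, both as higher, where 2.37% of all tested genes were. The list as a whole did not rise with them: 5 of the 9 had a log2 fold-change below 0, as did 7097 of all 12175 tested genes. The median was -0.20, against -0.09 over all tested genes. The 10 markers summed to 13497 and 17327 CPM without and to between 11383 and 12309 CPM with miR-200. That gap came from *Col1a1* and *Col1a2*, neither of which passed the test, and without them the sums overlapped. The 7 leukocyte markers summed to 8.38 and 9.41 CPM in the vector cells and to 12.2 to 12.8 CPM with miR-200. Of the 3 tested, *Lyz2* was called higher (limma log2 fold-change 1.91, adjusted *p* = 0.00395), where 2.37% of all tested genes were. *Adgre1* and *Cd3e* stood at 0 in every sample and *Ptprc* at 0.0404 CPM or less. The other tested leukocyte markers, *Cd68* and *Csf1r*, had log2 fold-changes of -0.14 and -0.46 with overlapping groups, so the higher sum rests on *Lyz2*. The mural cell markers summed to 11.9 to 15.1 CPM without and 10.8 to 11.4 CPM with miR-200, and the cartilage and tendon markers to 16.8 to 21.6 and 23.1 to 26.6 CPM, with *Tnmd* at 0. Within the last list *Sox9* was higher in every CAF-200 sample and *Scx*, a transcription factor of tendon, was at 2.50 and 1.75 CPM in CAF-vec against 0.292, 0.698 and 0.234 CPM (limma log2 fold-change -1.55, adjusted *p* = 0.0119). The part of these cells in the proteoglycan results was not tested.

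Of the 10 other genes of the family, 5 were tested and 1 was called, as lower, where 2.35% of all tested genes were. *Podnl1*, the relative of *Podn*, was at 116 and 81.8 CPM in CAF-vec and at 42.7, 41.6 and 42.5 CPM in CAF-200, with no overlap (98.7 ± 23.9 CPM, SD, n = 2, against 42.3 ± 0.600 CPM, SD, n = 3). It fell by 1.19 on the log2 scale (standard error 0.154, adjusted *p* = 0.0059, limma), and by 0.94 without CAF-vec 1, which took it inside the fold threshold. *Tsku*, tsukushi, a secreted modulator of several signalling pathways, was at 16.8 and 21.3 CPM in CAF-vec and at 27.8, 29.0 and 30.5 CPM in CAF-200 (limma log2 fold-change 0.61, adjusted *p* = 0.0184). *Chadl* was at most 1.16 CPM (limma log2 fold-change -0.39, adjusted *p* = 0.194), *Ecm2* and *Nyx* were too low to test, and *Chad*, like *Kera* and *Epyc*, was listed at 0 throughout.

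The enzymes that build the linker and the chondroitin or dermatan sulfate chains of decorin and biglycan gave 1 call, as higher, among 21 tested of 22 listed, where 2.37% of all tested genes were called higher and 2.35% lower. *Chst11*, which sulfates chondroitin at carbon 4, was at 9.52 and 10.5 CPM in CAF-vec and at 29.8, 30.5 and 39.7 CPM in CAF-200. The groups did not overlap, and *Chst11* rose by 1.68 on the log2 scale (limma, standard error 0.151, adjusted *p* = 0.0029). *Csgalnact1*, which starts the chain, passed the adjusted *p* alone as higher (limma log2 fold-change 0.62, adjusted *p* = 0.00842). *Chst3*, which sulfates chondroitin at carbon 6, and *Chst12*, another chondroitin 4-O-sulfotransferase, passed it as lower (limma log2 fold-changes -0.94 and -0.83, adjusted *p* = 0.0095 and 0.00859). *Chst3* was beyond the fold threshold as well without CAF-vec 2 and with 0.1 CPM added. The median of the 21 was -0.08. Of 5 tested keratan sulfate enzymes none was called by limma, 2 had an unadjusted *p* under 0.05 (5469 of all 12175 tested genes did), and those with the smallest adjusted *p* were *B3gnt2* (log2 fold-change -0.32, adjusted *p* = 0.0471), *Chst1* (-0.31, 0.0576) and *Chst2* (0.17, 0.432).

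**Figure D5:**
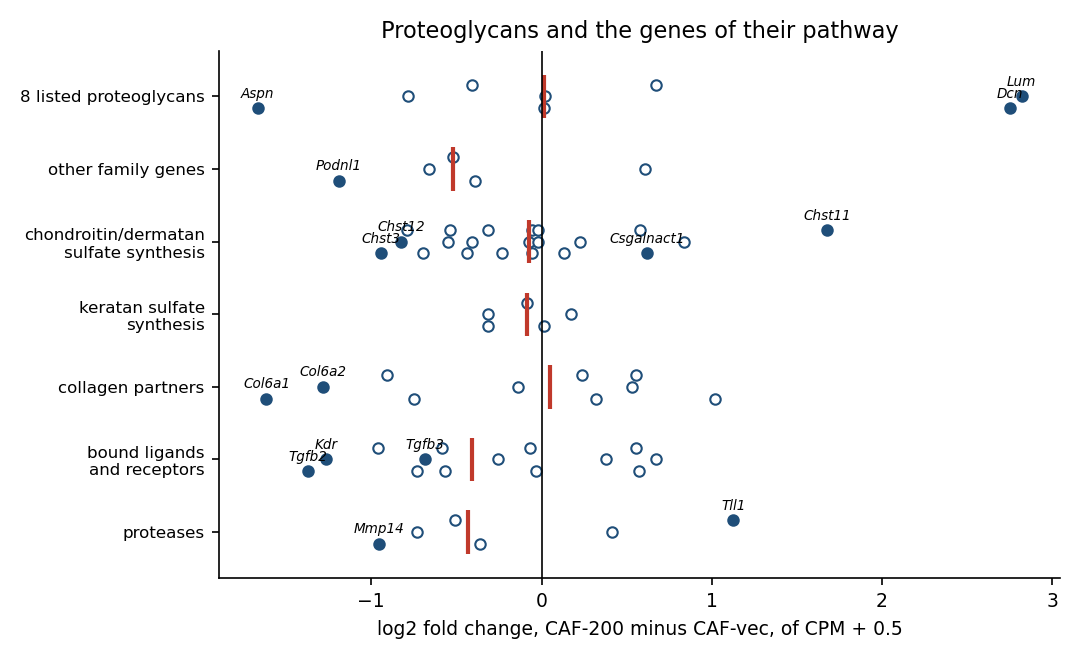
Log2 fold-change (CAF-200 minus CAF-vec, CPM + 0.5) of every tested gene in the lists of proteoglycans, their glycosaminoglycan enzymes, collagen partners, ligands and receptors, and proteases, 1 point per gene. Filled, named points had an adjusted *p* under 0.01, and red bars are list medians, 0.02 for the 8 proteoglycans and -0.41 for the ligands and receptors.

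Among 10 tested collagen partners, 2 were called and both were lower, where 2.35% of all tested genes were. *Col6a1*, a chain of the collagen VI that decorin and biglycan bind, was at 494 and 304 CPM in CAF-vec and at 126, 133 and 120 CPM in CAF-200 (limma log2 fold-change -1.62, adjusted *p* = 0.00589), and *Col6a2* was at 167 and 142 CPM and at 62.0, 66.2 and 60.6 CPM (-1.28, adjusted *p* = 0.00272, limma). The third chain, *Col6a3*, was at 110 and 124 CPM in CAF-vec and at 173, 164 and 181 CPM in CAF-200 (limma log2 fold-change 0.56, adjusted *p* = 0.0126). *Col1a1* and *Col1a2*, the chains of the main fibrillar collagen, were lower in every CAF-200 sample, but CAF-vec 1 stood apart (4613 against 2003 CPM for *Col1a1*), and their log2 fold-changes of -0.91 and -0.75 did not pass (adjusted *p* = 0.0982 and 0.112, limma). *Col3a1*, of collagen III, was higher in every CAF-200 sample (76.9 and 35.9 CPM against 114, 108 and 99.9 CPM, limma log2 fold-change 1.02) and did not pass either (adjusted *p* = 0.0542). In all, 5 of the 10 were below 0 and 5 above, with a median of 0.05.

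Of 14 tested ligands and receptors that the proteoglycans bind, 2 were called, both lower, against 2.35% of all tested genes. *Tgfb2* was at 23.9 and 22.5 CPM in CAF-vec and at 8.70, 9.45 and 7.89 CPM in CAF-200 (limma log2 fold-change -1.37, adjusted *p* = 0.00254). *Kdr*, the VEGF receptor that decorin is reported to bind, was at 2.31 and 1.82 CPM and at 0.690, 0.612 and 0.405 CPM (-1.26, adjusted *p* = 0.00807, limma), and with 1 CPM added it was -0.96, inside the fold threshold. *Tgfb3* passed the adjusted *p* alone as lower (-0.68, adjusted *p* = 0.00991, limma). For *Tgfb1* the log2 fold-change was 0.57 (limma, adjusted *p* = 0.0248), and the biglycan receptors *Tlr2* and *Tlr4* had -0.57 and -0.73 (adjusted *p* = 0.0158 and 0.0114, limma). Among receptors with positive values, *Met* and *Itgb1* had 0.67 and 0.55 (adjusted *p* = 0.0118 and 0.0161, limma). These 5 genes were named after their values were seen. Of 6 tested proteases, *Tll1*, a relative of the protease that trims the biglycan propeptide, was called higher, where 2.37% of all tested genes were (13.0 ± 0.680 CPM, SD, n = 2, against 29.4 ± 5.47 CPM, SD, n = 3, log2 fold-change 1.13, adjusted *p* = 0.00795, limma). *Mmp14*, a membrane-bound collagenase, passed the adjusted *p* alone as lower (limma log2 fold-change -0.95, adjusted *p* = 0.00318). The medians of the 2 lists were -0.41 and -0.43, with some members on each side of 0.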

How the data were processed

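RNA of CAF-vec (n = 2) and CAF-200 (n = 3) was sequenced as paired-end stranded mRNA libraries. The authors deposited 1 table of normalized CPM, not whole counts, named for TMM. The submitters' processing notes name FastQC, cutadapt, Trimmomatic, STAR, RSEM, edgeR and GRCm38 or mm10, without versions. All 5 columns were used.

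The 12175 genes that reached 0.5 CPM in 2 or more samples entered limma 3.58.1 (R 4.3.3), run on log2(CPM + 0.5) with lmFit and a trended eBayes and adjusted by Benjamini-Hochberg. The test was tried on simulated data drawn with the CAF-200 spread in every sample, so the wider CAF-vec spread was not tried. GENCODE M21 gave names for 21795 of 21835 identifiers, positions, lengths of protein-coding transcripts, and 3′-UTRs for 12055 of the tested genes. RefSeq gave the microRNAs. No protein sequence was used.

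The members, gene lists and thresholds were chosen with earlier results of these data known. Named are all members, other family genes, list genes called (or the 3 with the smallest adjusted *p*), the label check and the 3 nearest patterns. *Col1a1*, *Col1a2*, *Col3a1*, *Col6a3*, *Tgfb1*, *Tlr2*, *Tlr4*, *Met*, *Itgb1*, *Cd68*, *Csf1r*, *Sox9*, *Scx*, *Cenpp*, *Scp2* and list genes past the adjusted *p* alone were named after their values were seen. Alternatives were other pseudocounts, filters, scalings, thresholds, no trend, each sample left out, and a replicate block. Python 3.11.15 used pandas 2.3.3, numpy 2.4.6 and matplotlib 3.10.9.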

Additional observations from a re-analysis of the deposited data

How the results depend on the processing

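*Dcn* and *Lum* were higher in the 13 alternatives run and *Aspn* lower in the 12 that tested it, with log2 fold-changes of 2.68 to 2.85, 2.68 to 2.96 and -3.03 to -1.12. The sign of *Prelp* and *Podn* changed in 2 alternatives each. Leaving out 1 sample gave 0 to 2 members lower and 0 to 2 higher, and 0 to 955 genes lower and 0 to 625 higher, against 286 and 289 with all samples. The lowest counts came without a CAF-200 sample, when 1 or 2 members were lower and 2 higher at an unadjusted *p* under 0.05 (limma), as were 3821 to 4065 of all 12175 genes in either direction. A fit with 1 CAF-vec sample, which gave the highest counts, assumes that it varies like the CAF-200 samples. The CAF-vec samples differed more, with a standard deviation of the log2 difference of 0.490 against 0.192 to 0.204 within CAF-200. With at least 1 CPM in every sample, 0 members were lower, since *Aspn* then failed the filter. The replicate block gave 70 genes lower and 101 higher, 0 members lower (3 at an unadjusted *p* under 0.05, as 4054 of all 12175 genes were in either direction) and 2 higher. *Podnl1*, *Col6a1*, *Col6a2*, *Tgfb2*, *Kdr*, *Tll1* and *Thy1* were not called with the block, nor *Podnl1*, *Col6a1*, *Kdr* and *Tll1* without the filter. CAF-200 3 has no CAF-vec partner and adds nothing to the blocked fold-change. The numbers are shared labels only, and deviations from the group means correlated at 0.249 (number 1) and 0.134 (number 2). Among pairs with unlike numbers, CAF-vec 2 and CAF-200 3 had 0.119, and the others between groups had -0.249 to -0.119. With 2 CAF-vec samples their deviations mirror each other, so these values are not separate. At an adjusted *p* under 0.05, 436 genes were lower and 368 higher, and with a log2 fold-change beyond 0.5, 677 were lower and 541 higher. Centring each sample moved the all-gene median from -0.094 to 0.0027, and 38.4% of calls were then lower against 49.7%. The cause was not tested. edgeR and DESeq2 were not run, as whole reads could not be recovered from the CPM values.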

Other observations

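The table lists 6127 genes at 0 in all 3 CAF-200 samples and 0 genes at 0 in some of them, while 1205 genes were at 0 in 1 CAF-vec sample only. The 3 CAF-200 columns therefore share their zeros, and low CAF-200 values such as those of *Aspn* are listed above 0 in each column or in none. Whether zeros and low values were set jointly before deposit was not tested.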
